A study of Rattus norvegicus with 6 samples.

Results

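The brakes of the G1 phase were examined at the level of RNA in A-NSPCs and Q-NSPCs. They comprise 7 inhibitors of cyclin-dependent kinases (CDKs), which are Cdkn1a, Cdkn1b and Cdkn1c of the CIP/KIP family and Cdkn2a, Cdkn2b, Cdkn2c and Cdkn2d of the INK4 family, and the 3 retinoblastoma pocket proteins Rb1, Rbl1 and Rbl2. The 10 genes are defined by name, and each was read through the probe set that carries its symbol alone. Of the 10 genes, 9 had such a probe set (1 each) among the 17245 genes tested, and Cdkn2d was not analysed here.

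The arrays came from neurosphere cultures of rat NSPCs from the adult hippocampus. A-NSPCs (3 cultures) received the mitogen FGF2 at 10 ng/ml alone, and Q-NSPCs (3 cultures) received the same dose of FGF2 with BMP4 at 50 ng/ml, which takes them out of the cell cycle. Both were harvested after 4 days. FGF2 was thus present in both groups, and no other genotype or agent is given. The comparison asks how the transcripts of the cell cycle inhibitors stand when proliferation is stopped by BMP4 in the presence of the mitogen. Values are RMA log2 intensities, so that a difference of 1 is a doubling.

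D-type cyclins with CDK4 and CDK6, and cyclin E with CDK2, drive a cell through G1 by phosphorylating the pocket proteins. Unphosphorylated pocket proteins hold E2F factors and keep the genes of DNA replication silent. INK4 proteins bind CDK4 and CDK6 and block their pairing with cyclin D, whereas CIP/KIP proteins bind assembled cyclin-CDK complexes, above all those of CDK2. In mouse, several of these genes are known to restrain the division of neural stem cells, and many of them, p27 (Cdkn1b) in particular, are controlled largely at the protein level, which arrays do not measure.

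In Q-NSPCs 1 inhibitor rose and 1 pocket protein fell. Cdkn2b, which encodes the INK4 inhibitor p15, was 1.53-fold higher, and Rbl1, which encodes the pocket protein p107, was 1.87-fold higher in A-NSPCs. The words rose and fell stand for an adjusted p below 0.05 in limma, with the adjustment over every gene tested. At this threshold 2 of 9 members changed, beside 14.1% of all genes in either direction (7.91% higher and 6.2% lower), and no difference between these shares was tested. These calls moved when 1 array was left out. Leaving out replicate 1 or 3 of the A-NSPCs or replicate 3 of the Q-NSPCs left 0 of 9 members past the threshold, and leaving out replicate 2 of either group left 1 (Rbl1). Without Q-NSPC replicate 1 there were 3. Across these fits, rises over all genes ranged from 317 to 2195 (1364 with all arrays) and the falls from 102 to 1884 (1069 with all arrays). Before adjustment, 5 of 9 members had a p below 0.05, beside 29.5% of all genes. The 3 arrays of one group did not overlap with the 3 of the other in 6 of 9 members, 3 higher and 3 lower in Q-NSPCs, and in 34% of all genes. The median log2 fold change over the 9 members was 0.0059, beside 0.013 over all genes. Of the 9 log2 fold changes, 5 were above and 4 below 0, and the inhibitors that are often named first in cell cycle exit, p21, p27 and p57, did not pass the test at the RNA level.

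**Figure D1:**
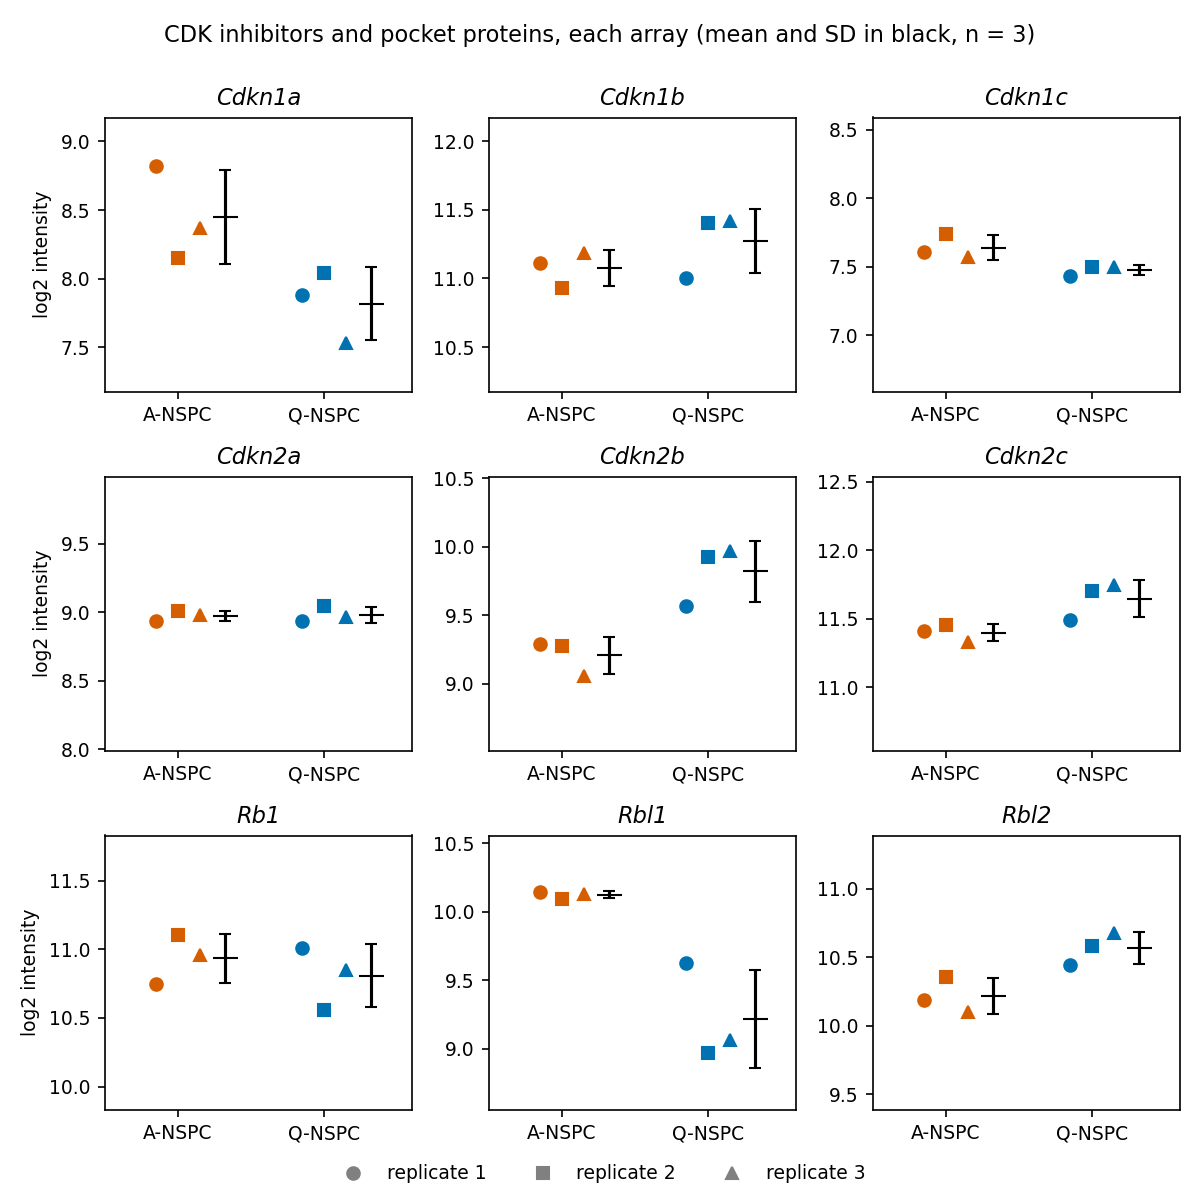
RMA log2 intensity of the 9 measured members in each of the 6 arrays, with 1 panel per gene, the same span of 2 log2 units in every panel, and the mean and SD of each group (n = 3) in black beside its points. Rbl1 lies lower and Cdkn2b higher in each of the 3 Q-NSPC arrays, while Cdkn1b, Cdkn2a and Rb1 overlap between groups.

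Among the INK4 genes 1 of 3 measured rose and 0 fell. Cdkn2b (probe set 10878001) had log2 intensities of 9.29, 9.27 and 9.05 in A-NSPC replicates 1, 2 and 3, and of 9.56, 9.93 and 9.97 in Q-NSPC replicates 1, 2 and 3. All quiescent cultures lay above all active ones, and Q-NSPC replicate 1 was the nearest to the active group. The group means were 9.21 ± 0.13 and 9.82 ± 0.22 (SD, n = 3). Their difference of 0.61 had a standard error of 0.14 and passed limma (adjusted p = 0.0246). Its 95% interval ran from a 1.23-fold to a 1.90-fold difference. As background, p15 is the INK4 member that TGF-beta is known to induce through SMAD proteins in human epithelial cells. Cdkn2b kept its direction with each array left out, at log2 fold changes from 0.54 to 0.74, but the adjusted p was 0.0777, 0.0587 and 0.0896 without A-NSPC replicates 1, 2 and 3, and 0.0861 and 0.1003 without Q-NSPC replicates 2 and 3. It was 0.00241 when Q-NSPC replicate 1 was left out.

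Cdkn2c encodes p18, an INK4 inhibitor that dividing neural progenitors of the mouse embryo express. It had 11.41, 11.45 and 11.33 in the A-NSPC arrays and 11.49, 11.70 and 11.75 in the Q-NSPC arrays. The groups did not overlap, but the gap between them was only 0.043 on the log2 scale, and the log2 fold change of 0.25 (standard error 0.10) did not pass the test (adjusted p = 0.155). Cdkn2a, whose locus encodes p16 and, in another reading frame, the p53 activator Arf, had 8.94, 9.01 and 8.98 in A-NSPCs and 8.93, 9.04 and 8.96 in Q-NSPCs. The arrays of both groups were interleaved, with a log2 fold change of 0.0059 whose 95% interval ran from -0.20 to 0.21. A change of Cdkn2a beyond 1.16-fold in either direction therefore lay outside the interval, and its probe set was not split between both products here. In the rat annotation, Cdkn2a and Cdkn2b are close neighbours on chromosome 5. Among protein-coding genes, only an uncharacterized locus lies between them, and other kinds of genes were not looked at. The rise of Cdkn2b thus stood beside an interval around 0 for Cdkn2a. Whether the changes of these 2 genes differ was not tested.

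Among the CIP/KIP genes, 0 of 3 changed, and Cdkn1a showed the largest difference in group means. Cdkn1a encodes p21, the inhibitor that p53 induces after DNA damage. It had 8.82, 8.15 and 8.37 in the A-NSPC arrays and 7.88, 8.04 and 7.53 in the Q-NSPC arrays. The groups were apart by 0.11 on the log2 scale, and replicates within each group scattered more widely than for most genes, with SDs of 0.34 and 0.26 beside medians of 0.12 and 0.14 over all genes. The log2 fold change was -0.63 with a standard error of 0.19 and did not pass the test (adjusted p = 0.0658). Its 95% interval from limma, not adjusted for the number of genes, ran from -1.07 to -0.18. The methods' test without shared variance gave a larger standard error of 0.25 when unpaired. Its p before adjustment was 0.0650 unpaired and 0.139 paired by replicate number. A higher level of p21 RNA in Q-NSPCs thus lay outside the limma interval, but the methods' test did not exclude it. With the arrays weighted by their quality, the log2 fold change of Cdkn1a in limma was -0.70 with an adjusted p = 0.0322. Over all genes these weights gave 2173 rises and 1855 falls, beside 1364 and 1069 without them. With each array left out in turn, Cdkn1a passed limma in 0 of 6 fits (adjusted p from 0.0619 to 0.211).

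Cdkn1b encodes p27, which binds cyclin E-CDK2 and accumulates as a protein in many resting cells. Its log2 intensities were 11.11, 10.93 and 11.19 in A-NSPCs and 11.01, 11.41 and 11.42 in Q-NSPCs. Q-NSPC replicate 1 lay among the active cultures and the other quiescent cultures above them. The log2 fold change was 0.20 (95% interval -0.12 to 0.52, adjusted p = 0.393). Cdkn1c encodes p57, an imprinted inhibitor that keeps adult hippocampal stem cells of the mouse in quiescence. It had 7.60, 7.74 and 7.57 in A-NSPCs and 7.43, 7.50 and 7.50 in Q-NSPCs. The small difference in means (log2 fold change -0.16, 95% interval -0.38 to 0.05, adjusted p = 0.299) came without overlap of the groups, and a rise of p57 RNA above 1.04-fold lay outside the interval. Because RMA values carry no detection call, it is not known how far the level of Cdkn1c exceeds background.

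Changes within the CIP/KIP family were compared directly, through the difference of 2 genes in each array. From A-NSPCs to Q-NSPCs, the difference Cdkn1a minus Cdkn1b changed by -0.83 on the log2 scale (standard error 0.28), and no array of one group overlapped with the other. The exact permutation test over 20 assignments of the arrays gave p = 0.1, which is the lowest value possible with groups of 3, and 0.3 after adjustment over 3 pairs (two-sided). For Cdkn1a against Cdkn1c the change was -0.47 (p = 0.3, exact permutation test) and for Cdkn1b against Cdkn1c 0.36 (p = 0.2, exact permutation test). With this design, none of these comparisons could reach the threshold.

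**Figure D2:**
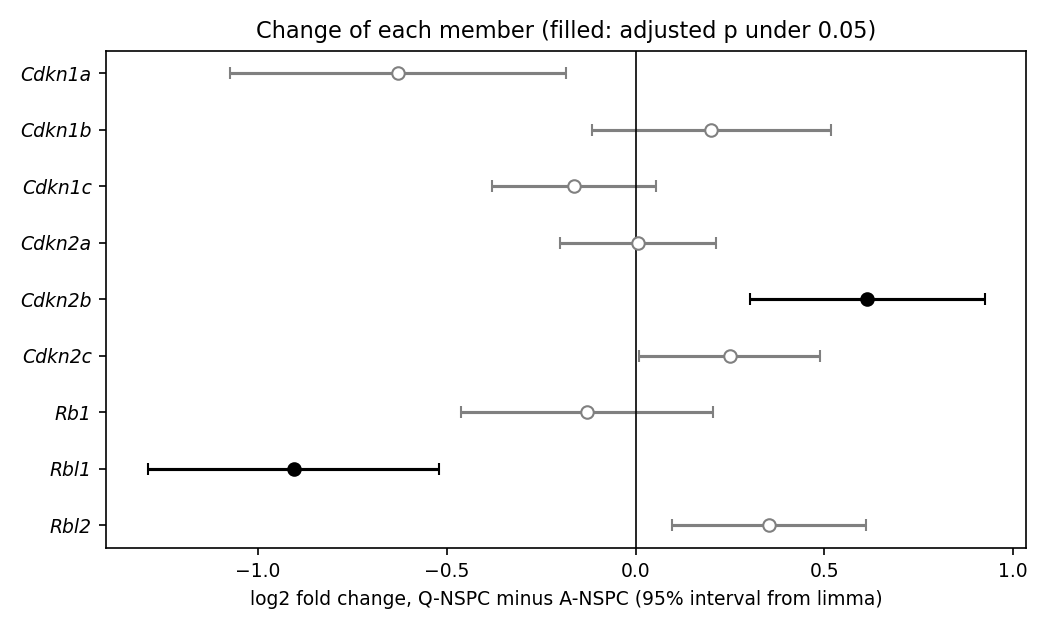
Log2 fold change of each member, Q-NSPC minus A-NSPC, with its 95% interval from limma (n = 3 arrays per group), where filled points passed an adjusted p of 0.05. The intervals of Rbl1 and Cdkn2b lie apart from 0 and their tests passed, those of Cdkn1a, Cdkn2c and Rbl2 lie apart from 0 without passing after adjustment, and those of the other 4 genes include 0.

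Of the 3 pocket protein genes 1 fell and 0 rose. Rbl1 encodes p107, which is most abundant in cycling cells and whose gene is itself a target of E2F, as known from mouse and human cells. It had 10.15, 10.09 and 10.13 in A-NSPC replicates 1, 2 and 3 (probe set 10851280) and 9.63, 8.97 and 9.06 in the Q-NSPC arrays. The active cultures agreed within 0.027 (SD, n = 3), the quiescent cultures were all lower by 0.47 or more, and Q-NSPC replicate 1 was the highest of them. The difference of the means was -0.91 with a standard error of 0.17, and passed limma (adjusted p = 0.0151), with a 95% interval from -1.29 to -0.52, and only 4.55% of all genes had a larger change in either direction. It stayed between -1.11 and -0.78 with each array left out. The adjusted p was 0.0698 and 0.0620 without A-NSPC replicates 1 and 3 and 0.0705 without Q-NSPC replicate 3. It was 0.000186 when Q-NSPC replicate 1 was left out.

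Rbl2 encodes p130, the pocket protein that is most abundant in resting cells, where it joins the DREAM complex that silences cell cycle genes. It had 10.19, 10.36 and 10.10 in A-NSPCs and 10.44, 10.58 and 10.68 in Q-NSPCs. The quiescent cultures all lay above the active ones, by 0.086 at the closest, and the log2 fold change of 0.35 (standard error 0.11, 95% interval 0.10 to 0.61) did not pass the test (adjusted p = 0.0717). It passed without Q-NSPC replicate 1 (0.42, adjusted p = 0.0341), the only 1 of the 6 fits without an array in which it did. Without Q-NSPC replicate 3 the adjusted p from limma was 0.221. Rb1, which encodes the retinoblastoma protein itself, had 10.75, 11.10 and 10.96 in A-NSPCs and 11.01, 10.56 and 10.85 in Q-NSPCs. The groups overlapped, and the log2 fold change was -0.13 (95% interval -0.46 to 0.20, adjusted p = 0.627).

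The change of p107 RNA was also set against that of its relatives within each array. The difference Rbl1 minus Rbl2 was -0.04, -0.26 and 0.04 in the A-NSPC arrays and -0.82, -1.62 and -1.62 in the Q-NSPC arrays. The mean difference thus changed by -1.26 (standard error 0.28), with no overlap between groups. Rbl1 minus Rb1 changed by -0.78 (standard error 0.17), again without overlap. Each of these changes had p = 0.1 in the exact permutation test, the lowest value possible here, and 0.15 after adjustment over 3 pairs. Rb1 minus Rbl2 changed by -0.48 (p = 0.2, exact permutation test). The ratio of p107 to p130 RNA was therefore lower in every quiescent culture than in any active one. Levels of different probe sets were not compared with each other.

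The promoters of the pocket protein genes are shown to place E2F and CHR words, to which E2F and the DREAM complex are known to bind, beside the changes, together with that of Cdkn2b, the inhibitor that rose. Sequences are from RefSeq on the build GRCr8 and span 250 bases before to 50 after the annotated start, 5′ to 3′, and 9 of the 10 genes had one. Capitals mark the E2F words TTTGGCGC, TTTCCCGC, TTTGCCGC and TTTCGCGC and the CHR word TTTGAA on either strand, none of which overlapped another.
Rbl1 (chr3:166289327-166289626, minus strand): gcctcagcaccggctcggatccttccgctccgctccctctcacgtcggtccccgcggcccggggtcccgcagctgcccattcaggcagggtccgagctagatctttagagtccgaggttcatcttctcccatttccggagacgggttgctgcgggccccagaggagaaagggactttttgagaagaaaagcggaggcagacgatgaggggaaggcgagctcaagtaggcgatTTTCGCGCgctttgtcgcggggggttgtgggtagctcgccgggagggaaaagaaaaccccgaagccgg
Rb1 (chr15:54911808-54912107, minus strand): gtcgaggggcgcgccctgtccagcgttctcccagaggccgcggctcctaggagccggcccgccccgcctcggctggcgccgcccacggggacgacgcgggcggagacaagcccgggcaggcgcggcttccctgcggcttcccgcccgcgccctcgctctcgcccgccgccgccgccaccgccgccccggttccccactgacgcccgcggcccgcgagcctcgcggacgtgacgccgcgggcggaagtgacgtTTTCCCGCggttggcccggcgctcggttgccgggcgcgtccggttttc
Rbl2 (chr19:32096362-32096661, minus strand): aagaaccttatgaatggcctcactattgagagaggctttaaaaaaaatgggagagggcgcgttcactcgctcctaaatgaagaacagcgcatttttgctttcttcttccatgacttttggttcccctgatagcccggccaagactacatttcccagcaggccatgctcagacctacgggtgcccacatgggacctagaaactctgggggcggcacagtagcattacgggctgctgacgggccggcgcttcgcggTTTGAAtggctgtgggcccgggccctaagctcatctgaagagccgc
Cdkn2b (chr5:109134806-109135105, minus strand): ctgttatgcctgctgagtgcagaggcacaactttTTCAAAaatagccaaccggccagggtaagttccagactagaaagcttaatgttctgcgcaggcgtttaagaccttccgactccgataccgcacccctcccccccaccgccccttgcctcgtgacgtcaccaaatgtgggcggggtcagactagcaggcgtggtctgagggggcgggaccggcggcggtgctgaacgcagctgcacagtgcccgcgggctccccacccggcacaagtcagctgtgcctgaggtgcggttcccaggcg
Rbl1, which fell, held the E2F word TTTCGCGC from 18 bases before its start. Rb1, which did not pass the test, held TTTCCCGC from base 3 of the transcript, while Rbl2 and Cdkn2b held the CHR word and no E2F word. None of the other 5 promoters of members held an E2F word or a CHR word. An E2F word was found in 2.3% of 27457 rat promoters of this length and a CHR word in 18.1%. Among tested genes with a promoter in the table, an E2F word was found in 7.4% of the 886 that fell, 3.1% of the 1064 that rose and 3.2% of all 14117. The CHR word, held by Rbl2 and Cdkn2b, was found in 16.5%, 10.7% and 15.5% of these, and no difference between the shares was tested. SMAD words (GGCGCC and GTCTAGAC), a FoxO word (GTAAACA) and an NFY word (CCAAT) were also searched, and Cdkn2b held none of these exact words. Shorter or other forms of SMAD words were not searched, so Cdkn2b may hold such forms. GGCGCC lay in the promoters of Cdkn1b, Cdkn2c, Cdkn2d and Rb1. It was found in 16.9% of tested genes, 23.9% of those that rose and 23.4% of those that fell. CCAAT lay in that of Cdkn1b and in 37.7% of tested genes. These matches are descriptions of the letters in a window and not binding sites.

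Several genes with which the members act fell in Q-NSPCs. Of 14 measured G1 cyclins and their kinases, 6 fell and 0 rose (median log2 fold change -0.27). Ccnd1, the cyclin D1 that pairs with the targets of INK4 proteins, fell by 1.37 log2 units (adjusted p = 0.0231), and Ccna2 (cyclin A2) and Ccne2 (cyclin E2), both partners of CDK2, by 1.03 and 0.59. Of the 3 subunits of the CDK-activating kinase, Mnat1 and Ccnh (cyclin H) fell by 0.58 and 0.40, and Cdk7 had 0.20 (adjusted p = 0.238). Among the 8 measured E2F and DP factors, the partners of the pocket proteins, 2 fell and 0 rose. The activator E2f1 fell by 0.76 and its partner Tfdp1 by 0.56 on the log2 scale. The atypical repressor E2f7 had -0.90 (adjusted p = 0.0824), and Tfdp2 had 0.21 (adjusted p = 0.147).

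The DREAM and MuvB subunits and their partners, 8 of which were measured, gave 4 falls and 0 rises. The MYB family members Mybl1 and Mybl2, of which Mybl2 (B-MYB) joins MuvB once p130 has left, fell by 1.13 and 1.08 on the log2 scale, and the core subunit Lin9 by 0.49. Another core subunit, Lin37, had 0.44 (adjusted p = 0.0525). Of the 33 measured E2F target genes of G1/S, 19 fell and 0 rose, with a median log2 fold change of -0.77. Gins1 and Mcm3 of the replicative helicase fell by 1.30 and 1.01, and Orc1 of the origin recognition complex by 0.99. Pola1, a subunit of DNA polymerase alpha, had 0.07 (adjusted p = 0.755). Rbl1 had -0.91 beside this median.

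**Figure D3:**
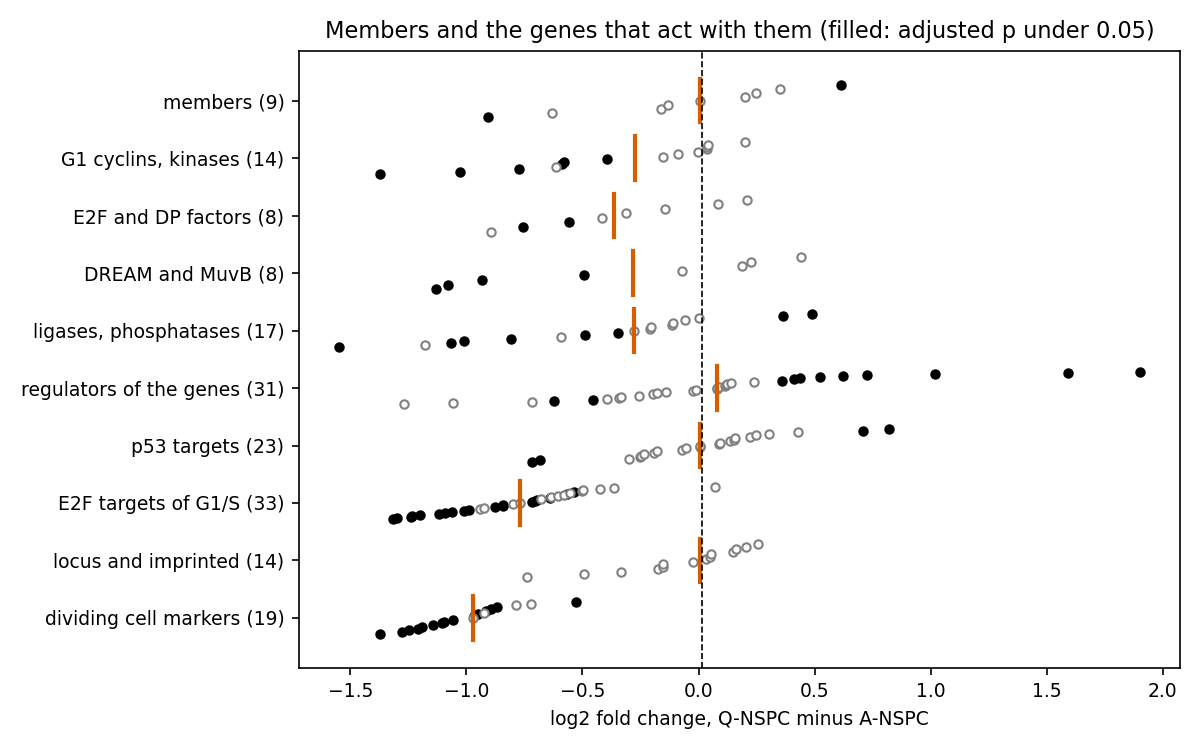
Log2 fold change, Q-NSPC minus A-NSPC, of the members and of each measured gene in 9 lists (number measured in brackets). The lists hold partners and regulators of the members, E2F and p53 target genes, locus neighbours and imprinted genes, and dividing cell markers. Filled points passed an adjusted p of 0.05, orange bars are list medians and the dashed line is the median of all genes, and the members straddle 0 while the E2F targets and dividing cell markers lie almost wholly below it.

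Genes linked to the stability of the inhibitors or the state of the pocket proteins went both ways. Of 17 measured ubiquitin ligase subunits, phosphatases and genes that act with them, 6 fell and 2 rose (median log2 fold change -0.28). Skp2, the ligase subunit that marks p27 and p130 for degradation, had 11.21, 11.12 and 11.28 in A-NSPCs and 10.84, 10.13 and 10.22 in Q-NSPCs. All quiescent cultures were lower, and Skp2 fell by 0.81 log2 units (adjusted p = 0.0260). Cdkn3, a phosphatase of CDKs that is unrelated to the inhibitor families despite its name, fell by 1.55, and Cdc20, an activator of the anaphase-promoting complex, by 1.06. Rnf123, a ligase of p27 in G1, went the other way and rose by 0.36 (adjusted p = 0.0390).

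Among 31 measured transcriptional regulators of the inhibitor genes, 9 rose and 2 fell. The 3 with the smallest p belong to the Id family, inhibitors of basic helix-loop-helix factors and direct targets of BMP signalling, with rises of 1.59 for Id4, 1.02 for Id1 and 1.90 for Id3 on the log2 scale. Runx1, a factor of blood stem cell formation, fell by 0.62. Foxo3, which in other cells activates Cdkn1b and Rbl2, rose by 0.72 (adjusted p = 0.0152) and was named after its value had been seen. The other FoxO genes did not pass, with -0.34 for Foxo1 (adjusted p = 0.214), -0.18 for Foxo4 (adjusted p = 0.539) and 0.12 for Foxo6 (adjusted p = 0.516). The 23 measured p53 target genes, the class to which Cdkn1a belongs, went both ways, with 2 rises, 2 falls and a median of 0.0062. Phlda3, an inhibitor of AKT, and the kinase Plk3 fell by 0.72 and 0.69, while the stress protein Tp53inp1 and the ribonucleotide reductase subunit Rrm2b rose by 0.71 and 0.82.

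The profiles nearest to those of the called members were sought among all genes, by the root mean square distance of values centred on their mean over the 6 arrays. Xrcc2, a protein of DNA repair, lay nearest to Rbl1 at a distance of 0.040 and had a log2 fold change of -0.93. The nucleolar protein Lyar (distance 0.041, log2 fold change -0.92) and the arginase Arg2 (0.042, -0.86) followed. Nearest to Cdkn2b were Nudt12, a hydrolase of NAD(P)H (distance 0.036, log2 fold change 0.67), the Wnt receptor Fzd2 (0.036, 0.55) and Commd7 (0.041, 0.56). Such nearness describes 6 arrays only.

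Some features of the cultures moved with these results. Of 19 dividing cell markers 15 fell and 0 rose. Cdca8, of the chromosomal passenger complex, and the spindle checkpoint genes Bub1b and Bub1 fell, and their levels were 1.86-fold, 2.59-fold and 2.15-fold higher in A-NSPCs. The summed level of all 19 dividing cell markers (log2 of the summed linear intensities) was 15.23 to 15.35 in A-NSPCs and 13.89 to 14.94 in Q-NSPCs. The proliferation marker Mki67 did not pass the test (log2 fold change -0.92, adjusted p = 0.0529). At 12.26 ± 0.04 (SD, n = 3) in A-NSPCs, it was 12.02, 10.83 and 11.15 in the Q-NSPC arrays. In cultures measured in bulk, fewer dividing cells and less RNA per cell cannot be told apart, and this holds for Rbl1 and the E2F targets. Q-NSPC replicate 1 was the quiescent array nearest to the A-NSPC mean in 6 of 9 members, with Cdkn2b and Rbl1 among them. It was also the nearest in 83.4% of the 2433 genes that changed. The share over all genes tested, changed or not, was not counted. As 1 minus the correlation over all genes, the mean distance of Q-NSPC replicate 1 was 0.0120 to the A-NSPC arrays and 0.0120 to the other Q-NSPC arrays. Q-NSPC replicates 2 and 3 lay at 0.0291 and 0.0269 from the A-NSPC arrays. With Q-NSPC replicate 1 left out, rises over all 17245 genes numbered 2195 and falls 1884, beside 1364 and 1069 with all arrays. In that fit, 3 members passed (Cdkn2b, Rbl1 and Rbl2). Falls numbered 31 among the E2F targets, 5 among the E2F and DP factors and 7 among the regulators. Among the regulators, Ezh2 and Myc are 2 of those that did not pass with all arrays. In the same fit the p53 targets gave 4 rises and 4 falls, and Lin37 was the 1 rise among the DREAM and MuvB genes.

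Of 12 measured markers of stem and progenitor cells, the cells that the labels name, 2 rose (Pax6 by 1.07 and Msi1 by 0.52) and 0 fell. Their summed level was 15.17 to 15.30 in A-NSPCs and 15.05 to 15.29 in Q-NSPCs. The mean intensities of the 12 in A-NSPCs ran from 5.16 for Prom1 to 13.91 for Vim, and without a detection call it was not decided which of them exceeded background. Among those that did not pass, Sox2 had a log2 fold change of 0.24, Nes of -0.57, Fabp7 of -0.65 and Hes1 of -1.06. Of 10 neuroblast and neuron markers 5 rose and 2 fell, and their summed level was 14.59 to 15.17 in Q-NSPCs against 13.95 to 14.00. Tubb3, Syt1 and Dcx rose by 1.78, 1.62 and 1.17, whereas the neurogenic factor Neurod1 fell by 1.53 and Rbfox3 by 0.69. Of 10 oligodendrocyte lineage markers 2 fell (Pdgfra by 1.29 and Olig2 by 0.91) and 0 rose, with summed levels of 12.76 to 13.99 in Q-NSPCs against 14.18 to 14.24. Of 8 astrocyte markers 2 rose (Gfap by 1.85 and Fgfr3 by 0.56) and 0 fell (12.56 to 12.62 against 12.18 to 12.54). Sox9, also counted among the stem and progenitor markers, was the brightest of the 8 (means 11.78 and 11.90) and weighs most in this sum. S100b had 0.32, Sox9 0.12, Gjb6 0.04, Gja1 0.01, Aqp4 -0.06 and Slc1a2 -0.21, and none of these passed. Microglial, endothelial and mural or fibroblast markers (10, 6 and 7 genes) gave 0 changes by limma, and the summed levels of both groups overlapped for each. Without Q-NSPC replicate 1, 7 oligodendrocyte lineage markers, 4 stem and progenitor markers, 1 astrocyte marker and 1 endothelial marker were lower. In that fit 1884 of all genes fell, beside 1069 with all arrays. The part of cell composition in the changes of Cdkn2b and Rbl1 was not tested.

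**Figure D4:**
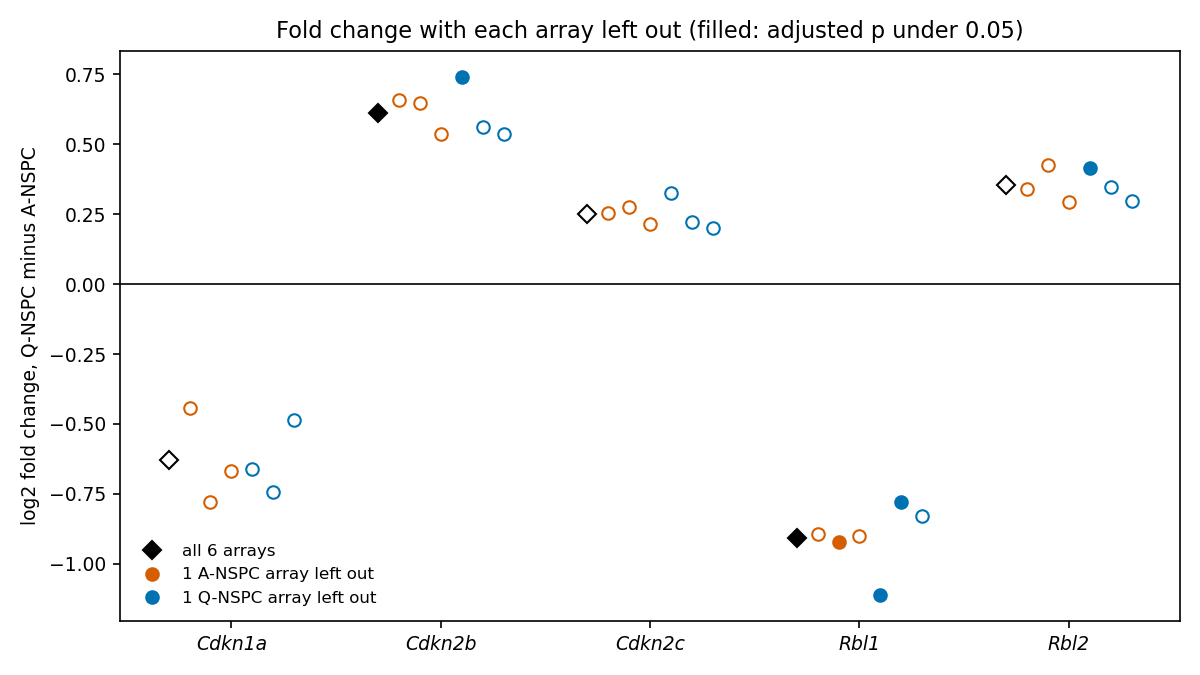
Log2 fold change, Q-NSPC minus A-NSPC, of the 5 members past an unadjusted p of 0.05, with all 6 arrays (diamonds) and with each array left out in turn (circles, from left A-NSPC and then Q-NSPC replicates 1 to 3), where filled symbols passed an adjusted p of 0.05. No value crosses 0, and leaving out Q-NSPC replicate 1 gives the largest sizes for Cdkn2b, Cdkn2c and Rbl1.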

How the data were processed

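Total RNA of 6 cultures was hybridized to Affymetrix Rat Gene 1.1 ST arrays, 1 per culture, and groups and replicate numbers come from the sample titles. The log2 intensities were made by the authors with RMA before deposit, and Affymetrix Expression Console and Partek 6.10 are named in the submitters' processing notes. Of 29214 probe sets, 18644 carry 1 gene symbol, 962 several and 9608 none, and the 17245 genes so named were tested through their probe set with the highest mean. Lookup by Entrez number in the rat gene table (18460 probe sets) changed 0 symbols. No dim gene was removed. Array medians lay between 7.53 and 7.57, and the number of arrays limits the precision.

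Groups were compared with limma 3.58.1 in R 4.3.3 (lmFit, eBayes, two-sided, Benjamini-Hochberg adjustment over all genes). The fit was also run on simulated data with equal spread in both groups, and no result given here rests on that run. Members and lists were chosen with earlier results of these data known. The genes named are all members, the 3 genes of each pathway list with the smallest p and the first that goes the other way, the 3 profiles nearest to each called member, and Mki67 and Skp2; the CDK-activating kinase and FoxO genes, Ezh2, Myc and the cell type markers were added after their values were seen. Alternatives were other normalizations, probe set rules, variance models, array weights, a filter on dim genes, the methods' tests, a replicate block and leaving out each array. The titles call the replicates biological, and the paper describes its array samples as coming from independent experiments. Neither says whether arrays of the same number share an experiment. Arrays of the same number did not deviate together (r = -0.055, 0.0092 and -0.034), so the numbers were not used as pairs.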

Additional observations from a re-analysis of the deposited data

How the results depend on the processing

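With each array left out in turn, the genes that rose numbered 317 to 2195 (1364 with all arrays), those that fell 102 to 1884 (1069 with all arrays) and the members that passed 0 to 3. The log2 fold change of Cdkn2b ranged from 0.54 to 0.74, that of Rbl1 from -1.11 to -0.78, that of Rbl2 from 0.29 to 0.42 and that of Cdkn2a from -0.026 to 0.029. Fits without 1 array have fewer samples, and beyond this the cause of lost calls was not tested. Array weights gave 2173 rises, 1855 falls and 4 members, with Cdkn1a at -0.70 and Rbl2 at 0.40 now past the threshold. Testing only genes brighter than the median brought Rbl2 (0.35) to an adjusted p = 0.0453 and left Cdkn1a and Cdkn1c without a test. The methods' test without shared variance left 0 genes higher, 0 lower and 0 members when unpaired (2399, 1842 and 5 at an unadjusted p under 0.05), with Cdkn2b (0.61) and Rbl1 (-0.91) at adjusted p-values of 0.139 and 0.134. Paired by replicate number, it left 1, 0 and 0 (1542, 1174 and 1 at an unadjusted p under 0.05), with Cdkn2b (0.61) and Rbl1 (-0.91) at 0.344 and 0.312. With the replicate block in limma, 1093 genes rose, 950 fell and Cdkn2b and Rbl1 passed again, at adjusted p-values of 0.0454 and 0.0179. The block changed no call of a member, and the titles link the samples only by a number. Centring arrays on their medians turned Cdkn2a from 0.0059 to -0.0030. No alternative turned the direction of any other member or of a pair of genes. The counts of genes in lists without Q-NSPC replicate 1 were chosen after seeing the data.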

Other observations

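Imprinted genes and the neighbours of Cdkn1c and Cdkn2a were measured as a further set. Of 14 genes, 0 rose and 0 fell by limma at an adjusted p under 0.05, and the median log2 fold change was 0.0052. At an unadjusted p under 0.05 there were 3. Without Q-NSPC replicate 1 there were 2 falls, beside 1884 over all genes. Plagl1, an imprinted zinc finger gene of an imprinted growth network in mouse, had -0.74 (adjusted p = 0.0522), and Kcnq1, whose locus holds the control region of Cdkn1c, had -0.34 (adjusted p = 0.0622) at a dim level of 6.62 in A-NSPCs. Mtap, the neighbour of Cdkn2a, had -0.50 (adjusted p = 0.107), and Slc22a18, on the other side of Cdkn1c, had 0.26 (adjusted p = 0.237).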
